A study of Mus musculus with 2 samples.

Results

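Chemokines are small secreted proteins that guide migrating leukocytes, and they act through membrane-spanning receptors that couple to inhibitory G proteins. Expression of this family was read from 2 Affymetrix arrays of peritoneal macrophages from male C57BL/6 mice, 1 array for cells transfected with a control siRNA and 1 for cells given an siRNA against HDAC9, both 48 h after transfection. The family was taken as every gene whose single symbol in the platform annotation begins with Ccl, Cxcl, Cx3cl, Ccr, Cxcr, Cx3cr, Xcr or Ackr and a number, together with Pf4 and Ppbp. This gave 55 of the 18193 genes on the arrays, 34 ligands and 21 receptors. HDAC9 is a histone deacetylase of class IIa. Where a gene had several probe sets, the one with the highest linear signal averaged over the arrays gave its value. The labels do not say how many mice the cells came from or whether cells were pooled.

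Resident macrophages are a source of chemokines that draw monocytes and neutrophils into the peritoneal cavity, and their own receptors set which signals they follow. CC and CXC ligands are named for the spacing of their first cysteines. Some are induced during infection, largely through NF-kappaB and interferon signalling, while others are made steadily and place cells within tissues; atypical receptors bind ligands and clear or carry them without the usual G protein signal.

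With 1 array per group there was no replicate, so each value below is a difference between 2 arrays, with no test, p-value or spread between cultures. Signals are on a log2 scale. A signal was above background when it exceeded a floor of log2 6.34, the 95th percentile of 80 probe sets for olfactory and vomeronasal receptors, and a gene when that held on at least 1 array. Lower signals were raised to that floor before a ratio was taken. Where only 1 of the signals exceeded the floor, the ratio is a bound. The scatter of a single probe set, taken from genes with several probe sets, was 0.29 log2, and smaller ratios are described as within that scatter. In bulk RNA, more cells of a type and more RNA per cell cannot be told apart. The siRNA target was itself near the floor. Hdac9 had signals of 6.88 and 5.69, here and below given in the order control siRNA and HDAC9 siRNA, at least 1.46-fold lower, and by its second probe set, at 5.99 and 5.94, it was below background throughout. Of 11 macrophage markers measured, 10 were above background, with a median ratio of 0.01; Timd4 was below background on both arrays. Within the scatter were 5 of the 10, against 7945 of all 12090 genes above background. Adgre1, which encodes the F4/80 antigen, was among the 5, at 12.71 and 12.72. Gata6, a factor of resident peritoneal macrophages (0.46), Fcgr1 (0.43), Icam2 (0.40) and Mertk (0.37) lay above the scatter and Cd14 (-0.46) below it. Of all genes above background, 22.2% lay above the scatter and 12.1% below it.

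Ligand genes were mostly higher on the HDAC9 siRNA array and receptor genes were not. Of the 34 ligands, 23 were above background (67.6%, against 66.5% of all genes), all of them on both arrays. Of these 23, 19 had a ratio above 0 (82.6%, against 54.1% of all 12090 genes above background). The median log2 ratio of the 23 was 0.34, against 0.03 over all genes. Within the single-probe-set scatter were 8 of the 23, against 7945 of all 12090 genes. Of the 19, Ccl20 and Cxcl12 were at 0.01 and turned below 0 when ratios were centred on the all-gene median. Ccl25, Cx3cl1 and Cxcl14, also among the 19, had second probe sets of the opposite direction. At least 2-fold higher were 3 ligands, Cxcl10, Ccl8 and Cxcl5, in a transcriptome where 1.44% of genes above background passed that threshold in that direction. At least 2-fold lower were 0 ligands, against 0.372% of all genes. At 1.5-fold, 7 ligands were higher (7.81% of all genes), those 3 with Ccl7, Ccl5, Ccl2 and Ccl25, and 1 was lower, Cxcl13 (2.79% of all genes). Ccl25 and Ccl2 were close to that threshold: Ccl25 fell short of it under 6 of 8 alternatives and Ccl2, at 0.56, when ratios were centred on the all-gene median. The other 5 ligands stayed past 1.5-fold higher under every scaling and floor run. Each of these 5 has 1 probe set, so the probe set choices could not change their values. Of the 21 receptors, 8 were above background (38.1%, against 66.5% of all genes), 4 with a ratio above 0 and 4 below. The median of the 8 was 0.01, and 0 had a ratio past 2-fold in either direction. At 1.5-fold 1 receptor was higher, Ackr1, and 0 were lower; Ackr1 fell short of the threshold after quantile normalization (0.58) and loess (0.56).

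**Figure D1:**
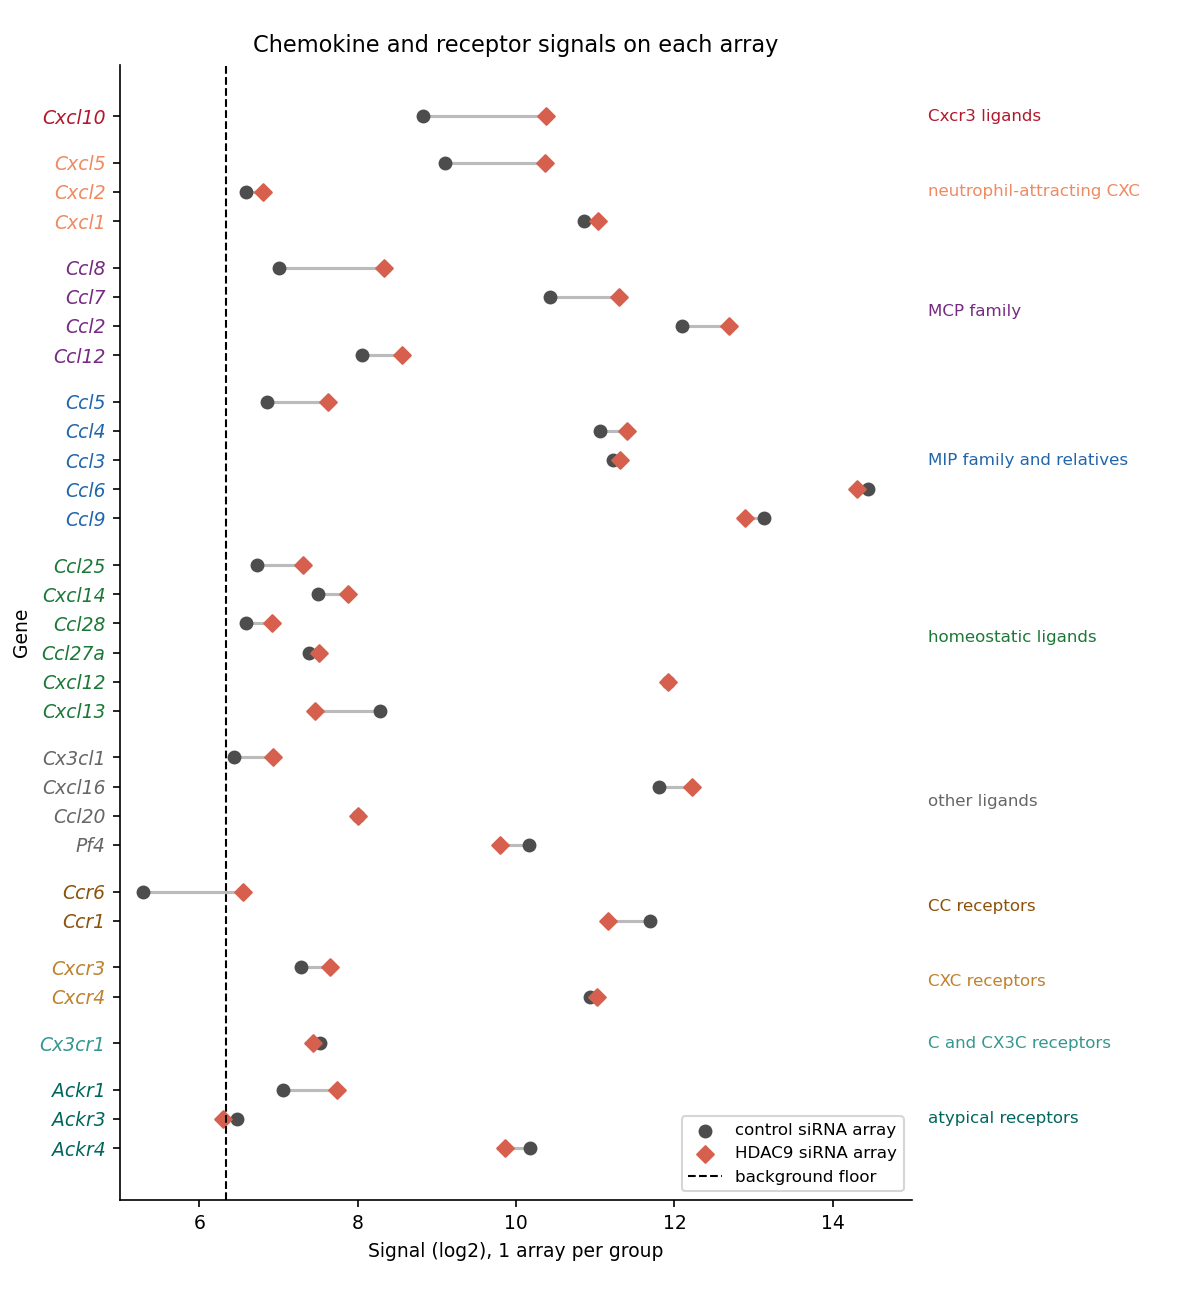
Signals (log2, horizontal axis) of the 31 ligand and receptor genes above background on at least 1 array, with circles for the control siRNA array, diamonds for the HDAC9 siRNA array and a dashed line at the background floor of 6.34; genes are grouped by role. The widest gaps among genes above background on both arrays are those of Cxcl10, Ccl8 and Cxcl5, and for Ccl20 and Cxcl12 the symbols overlie each other.

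The sequences upstream of ligand genes are shown because members past 2-fold have relatives that differed less or were not detected. RefSeq promoter entries matched 42 of the 55 genes, 24 of them ligands. The 250 bases before the annotated start were searched on both strands for GAAANNGAAA, the core of the interferon-stimulated response element, and for GGGNNNTTCC, an NF-kappaB site core; the motifs do not overlap each other in the sequences below. Capitals mark matches, and in Cxcl1 a pair of matches on opposite strands overlap and form a longer run of capitals. Cxcl10 and its cluster neighbour Cxcl9 come first, then Ccl8 and its neighbour Ccl12, then Cxcl1, which shares a receptor and a gene cluster with Cxcl5. Of the ligands at least 1.5-fold higher, Cxcl5, Ccl2, Ccl5 and Ccl7 had no entry and were not searched.
Cxcl10 (GRCm38.p6, chr5:92348890-92349139, - strand): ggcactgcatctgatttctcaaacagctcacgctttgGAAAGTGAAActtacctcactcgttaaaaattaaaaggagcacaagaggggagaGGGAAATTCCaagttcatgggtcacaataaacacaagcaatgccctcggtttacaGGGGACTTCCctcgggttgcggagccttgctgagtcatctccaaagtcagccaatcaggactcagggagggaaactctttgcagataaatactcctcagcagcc
Cxcl9 (GRCm38.p6, chr5:92328080-92328329, - strand): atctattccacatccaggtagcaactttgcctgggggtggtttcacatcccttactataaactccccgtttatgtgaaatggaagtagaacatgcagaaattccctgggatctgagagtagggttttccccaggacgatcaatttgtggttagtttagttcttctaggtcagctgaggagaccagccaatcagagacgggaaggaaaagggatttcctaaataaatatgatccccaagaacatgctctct
Ccl8 (GRCm38.p6, chr11:82114935-82115184, + strand): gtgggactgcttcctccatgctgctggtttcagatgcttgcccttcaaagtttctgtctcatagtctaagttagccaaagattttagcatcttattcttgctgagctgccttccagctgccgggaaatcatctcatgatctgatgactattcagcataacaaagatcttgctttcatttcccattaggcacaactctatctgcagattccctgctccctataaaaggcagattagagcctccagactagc
Ccl12 (GRCm38.p6, chr11:82101595-82101844, + strand): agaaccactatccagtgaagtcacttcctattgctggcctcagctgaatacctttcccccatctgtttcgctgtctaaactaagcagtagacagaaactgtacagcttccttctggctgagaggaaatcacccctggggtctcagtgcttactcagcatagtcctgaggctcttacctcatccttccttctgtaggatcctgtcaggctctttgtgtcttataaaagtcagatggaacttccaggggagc
Cxcl1 (GRCm38.p6, chr5:90890995-90891244, + strand): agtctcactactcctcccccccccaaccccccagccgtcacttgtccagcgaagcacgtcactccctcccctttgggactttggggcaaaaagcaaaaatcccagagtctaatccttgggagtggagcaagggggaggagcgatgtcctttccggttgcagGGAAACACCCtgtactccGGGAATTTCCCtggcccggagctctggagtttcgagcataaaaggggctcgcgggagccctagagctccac

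The Cxcl10 window held GAAANNGAAA with its first base 213 bases before the start and GGGNNNTTCC at 159 and 104 bases. Among all 32851 RefSeq promoter windows of this length, 2.98% held the first motif, 4.65% the second and 0.110% both. Cxcl10 was the 1 family gene of the 42 matched with both. The first motif was in 2 of the 24 ligands matched, Cxcl10 and Cxcl14. The second was in 7, Cxcl10, Cxcl1, Cxcl2, Cxcl3, Ccl1, Ccl9 and Ccl20. The ratios of these 7 genes ran from 1.55 for Cxcl10 through 0.21 for Cxcl2, 0.17 for Cxcl1 and 0.01 for Ccl20 to -0.24 for Ccl9, and Cxcl3 and Ccl1 were below background. The windows of Ccl8, Ccl12 and Cxcl9 held neither string of letters. A match describes these letters only and is not evidence of a bound site.

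Of the ligands of Cxcr3, the receptor that draws activated T cells and natural killer cells, Cxcl10 was the 1 gene above background. Cxcl10, an interferon-inducible chemokine, had signals of 8.83 and 10.38, 2.93-fold higher, by its only probe set. This was the largest ratio in the family. Cxcl9, an interferon-gamma-inducible ligand of the same receptor, was below background by both probe sets, with signals of 4.62 and 3.80 for the brighter one. Cxcl11, the remaining ligand, was also below background by both, with 4.55 and 5.85 for the one taken; RefSeq lists it as a transcribed pseudogene in the C57BL/6J reference. Cxcr3 itself had signals of 7.28 and 7.65, a ratio of 0.37.

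The monocyte chemoattractant proteins were higher as a family, 4 of 4 genes by more than the single-probe-set scatter, as were 22.2% of all genes above background. Ccl8, also called MCP-2, had signals of 7.01 and 8.34, 2.52-fold higher. Ccl7, or MCP-3, had signals of 10.43 and 11.29, 1.83-fold higher. Ccl2, or MCP-1, the main ligand that brings monocytes out of the bone marrow, had signals of 12.10 and 12.69, 1.51-fold higher. Ccl12, or MCP-5, had signals of 8.05 and 8.56, 1.42-fold higher. The family median was 0.73, and each gene rests on 1 probe set. Ccr2, the receptor for Ccl2, Ccl7 and Ccl12, was below background on both arrays by all of its 4 probe sets, with signals of 5.76 and 5.07 for the brightest.

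Among ligands of Cxcr2, the receptor that recruits neutrophils, Cxcl5 stood apart from its relatives. Cxcl5 had signals of 9.10 and 10.36, 2.39-fold higher. Cxcl1, the mouse chemokine KC, had signals of 10.86 and 11.04, with a ratio of 0.17, and its dimmer probe sets gave 0.41 and -0.002. Cxcl2, or MIP-2, had signals of 6.59 and 6.80, a ratio of 0.21. Cxcl3, Cxcl15 and the platelet chemokine gene Ppbp were below background on both arrays, as was Cxcr2. Cxcl5 was thus the 1 gene of this group past 2-fold, and by their brightest probe sets Cxcl1 and Cxcl2 were within the single-probe-set scatter.

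Cells other than macrophages also make several of these ligands, and their markers were measured on the same arrays. All 10 fibroblast markers were above background, 5 with ratios above 0 and 5 below. Col1a1 and Col3a1, chains of fibrillar collagen, were 3.49-fold and 2.75-fold higher, and Postn was 1.51-fold lower. The summed linear signal of the list was 40148 for control siRNA and 53726 for HDAC9 siRNA. Col1a2, the brightest gene of the list at 13.94 and 14.37, weighed most in these sums. All 9 mesothelial markers were above background, 3 with ratios above 0 and 6 below, with a median of -0.17. Msln, which encodes mesothelin, was 2.15-fold lower and Krt7 1.99-fold lower. The mesothelial sums were 13296 and 14590, and Upk3b, the brightest gene of the list at 12.46 and 12.70, weighed most in them. No marker in either list was listed at 0. Fibroblasts and mesothelial cells can make Cxcl5, Cxcl12 and Ccl2, and their part in these ratios was not tested. Of the T cell markers measured, 5 of 11 were above background, 4 of them at least 1.5-fold lower (2.79% of all genes): Lat by 1.70-fold, Thy1 by 1.64-fold, Cd28 by 1.56-fold and Cd8a, below background for HDAC9 siRNA, by at least 1.73-fold. Cd3d, Cd3e and Cd3g were below background. The T cell sums, 15957 and 15701, were carried by Il7r, at 13.79 and 13.84. Of 4 eosinophil markers 1 was above background, Siglecf, which encodes a sialic acid-binding lectin, with signals of 9.21 and 8.13, 2.11-fold lower; the sums were 665 and 340, and Epx, Prg2 and Il5ra were below background. T cells and eosinophils can make Ccl5 and Ccl6, among other ligands, and their part in the ratios was not tested. No marker of T cells, B cells, NK cells, neutrophils, mast cells and basophils, dendritic cells or endothelium had a ratio past 2-fold. Ratios that are bounds, such as that of Cd8a, do not show how large the difference is. At 1.5-fold, Gata2, 1 of 2 mast cell and basophil markers above background, was 1.57-fold higher (7.81% of all genes). Batf3, 1 of 4 dendritic cell markers above background, was 1.54-fold lower (2.79% of all genes). Of the B cell, NK cell, neutrophil and endothelial markers, 0 had a ratio past 1.5-fold, and the 1 B cell ratio is a bound.

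**Figure D2:**
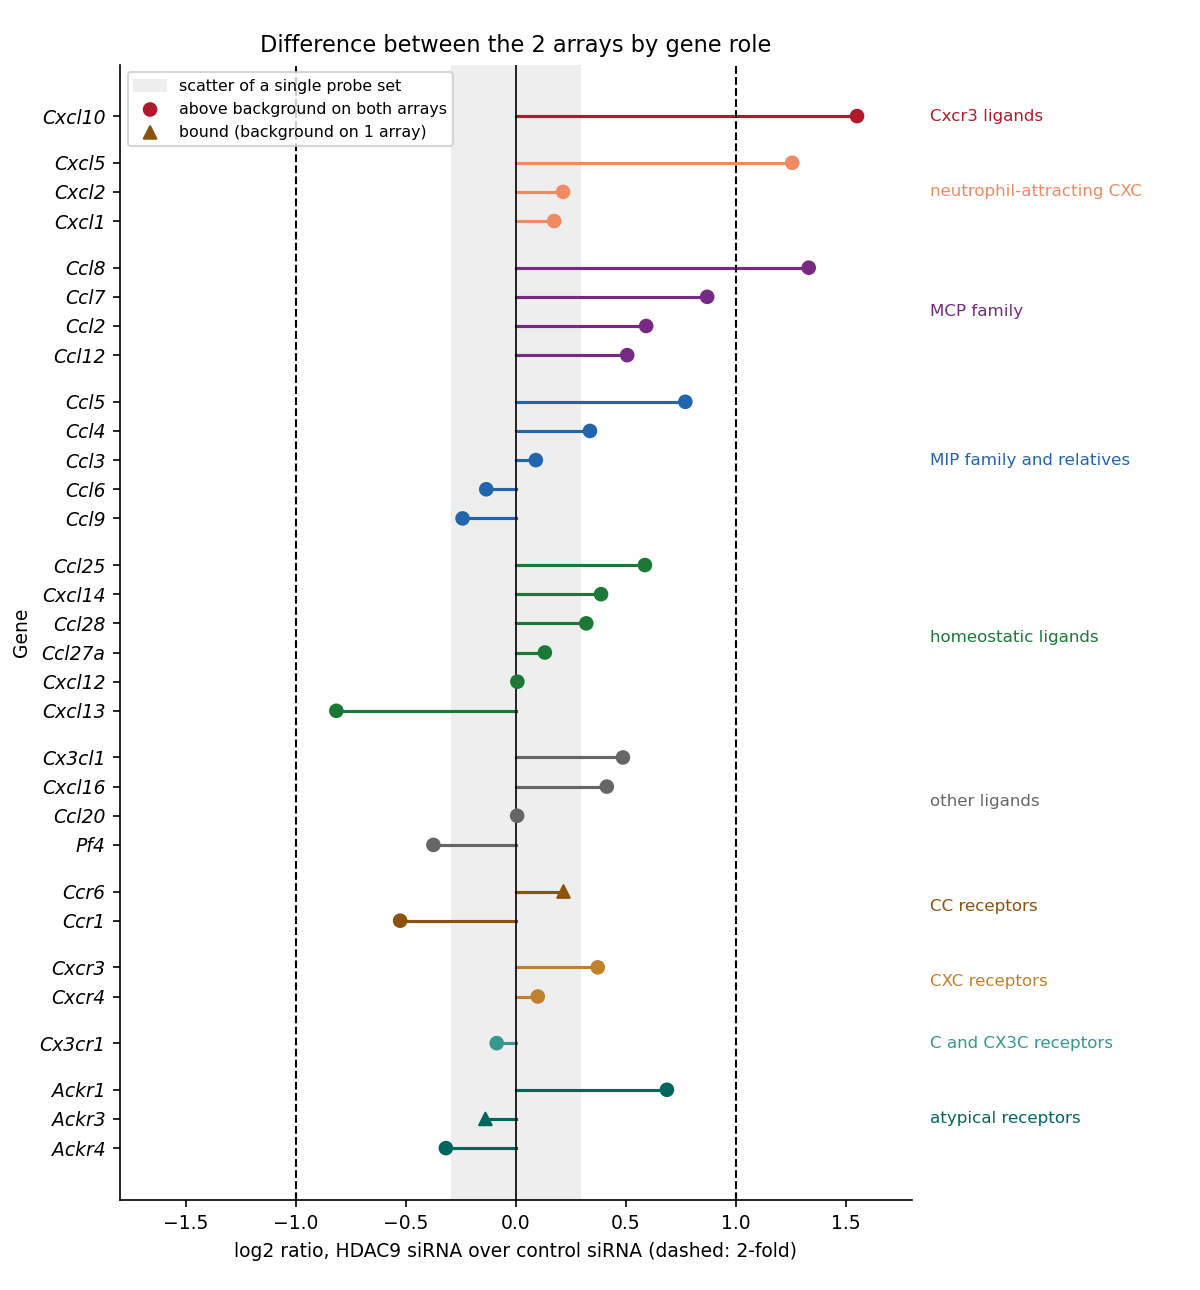
Log2 ratio (HDAC9 siRNA over control siRNA) of each of the 31 genes above background, coloured by role, with triangles for bounds, dashed lines at 2-fold and a grey band at the 0.29 scatter of a single probe set. Points to the right of the 2-fold line are Cxcl10, Ccl8 and Cxcl5, no point is left of the opposite line, and all 4 monocyte chemoattractant proteins lie right of the grey band.

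Macrophage inflammatory proteins and their relatives, which act on monocytes, T cells and natural killer cells, did not share a direction. Ccl5, also called RANTES, had signals of 6.86 and 7.63, 1.70-fold higher. Ccl4, or MIP-1 beta, had signals of 11.06 and 11.40, a ratio of 0.34. Ccl3, or MIP-1 alpha, had signals of 11.22 and 11.31, a ratio of 0.09. Ccl6 and Ccl9, ligands of Ccr1 that mouse macrophages make without stimulation, had ratios of -0.14 and -0.24, and their second probe sets gave -0.12 and -0.22. All but Ccl5 and Ccl4 were thus within the scatter, and the median of the 5 genes was 0.09. Ccr1, which binds Ccl3, Ccl6 and Ccl9, had signals of 11.69 and 11.16, 1.44-fold lower, or -0.12 by its dimmer probe set.

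Homeostatic ligands, which position cells in resting tissue, held the lowest ratio of the family. Cxcl13, which attracts B cells and the B1 cells of the body cavities, had signals of 8.28 and 7.47, 1.76-fold lower, and its second probe set gave -0.53. Its receptor gene Cxcr5 was below background on both arrays. Cxcl12, the stromal ligand of Cxcr4, had signals of 11.92 and 11.92, while its second probe set was at 10.16 and 10.62. Cxcr4 had signals of 10.93 and 11.03, a ratio of 0.10. Cxcl12 and Cxcr4 were within the scatter by their brightest probe sets.

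The other homeostatic ligands were dim, and their probe sets were less uniform. Ccl25, a thymic and intestinal chemokine, had signals of 6.73 and 7.31, a ratio of 0.59, but its second probe set gave -0.10. Cxcl14 had signals of 7.50 and 7.88, a ratio of 0.39, against -0.66 by its second probe set. Ccl28, a mucosal chemokine, had signals of 6.60 and 6.92, a ratio of 0.32. Its second probe set, at 6.30, below background, and 6.70, gave a bound of 0.36. Ccl27a, a skin chemokine, had signals of 7.38 and 7.52, a ratio of 0.13, from a probe set that may also read its near-identical copies. No direction can be given for Ccl25 or Cxcl14 from probe sets that oppose each other.

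Membrane-bound and other ligands had ratios on both sides of 0, none past 1.5-fold and 1 of 4, that of Ccl20, within the scatter. Cxcl16, a transmembrane chemokine that doubles as a scavenger receptor, had signals of 11.81 and 12.22, 1.33-fold higher, and its second probe set gave 0.43 against 0.41. Its receptor gene Cxcr6 was below background. Cx3cl1, or fractalkine, had signals of 6.44 and 6.93, a ratio of 0.49. Its second probe set, at 6.37 and, below background, 6.18, gave a bound of -0.03. The receptor gene for Cx3cl1, Cx3cr1, had signals of 7.53 and 7.44, a ratio of -0.09. Ccl20, which acts through Ccr6, had linear signals of 256 and 257, and its ratio of 0.01 turned to -0.08 after loess. Pf4, platelet factor 4, which macrophages also express, had signals of 10.17 and 9.79, 1.30-fold lower. On the same arrays, 6 of 6 megakaryocyte and platelet markers measured were above background (66.5% of all genes), 4 of them on both arrays. All were dim, none was past 2-fold, and their summed linear signal was 709 and 801. The ratios of Gp6 (at least 1.56-fold higher) and Treml1 (at least 1.76-fold lower) were bounds. The part of platelets in the Pf4 signal was not tested.

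Most receptors gave no ratio. Those above background on 1 array only were Ccr6, at 5.30, below background, and 6.55 (at least 1.16-fold higher), and Ackr3, which removes Cxcl12, at 6.48 and, below background, 6.31 (at least 1.10-fold lower). Ackr1, an atypical receptor of red cells and venules that binds many inflammatory chemokines, had signals of 7.06 and 7.74, 1.61-fold higher, by 1 probe set. Of 7 endothelial markers 2 were above background, with sums over the list of 622 and 784; the part of endothelium in the Ackr1 ratio was not tested. Ackr4, which takes up Ccl19, Ccl21 and Ccl25, had signals of 10.18 and 9.86, a ratio of -0.32, whereas its second probe set gave 0.47. With Ccr1, Cxcr3, Cxcr4 and Cx3cr1 above, these make up the 8 receptors with a value.

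The genes below background on both arrays were 11 ligands, Ccl1, Ccl11, Ccl17, Ccl22, Ccl24, Cxcl3, Cxcl9, Cxcl11, Cxcl15, Cxcl17 and Ppbp, with deposited signals from 1.55 to 6.03. They include all 4 genes grouped as ligands of Ccr3 or Ccr4, the receptors of eosinophils and of helper and regulatory T cells: Ccl11, Ccl17, Ccl22 and Ccl24. The 13 receptors below background were Ccr1l1, Ccr2, Ccr3, Ccr4, Ccr7, Ccr8, Ccr9, Ccr10, Cxcr2, Cxcr5, Cxcr6, Xcr1 and Ackr2, with signals from 1.04 to 5.98. Deposited signals of these genes can differ widely without a measured ratio: Ccr7, the receptor for homing to lymph nodes, was listed at 1.04 and 5.95, both under the floor.

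How far a ratio stands out depends on the signal, because dim genes vary more. All genes above background were ranked by mean signal and divided into 4 bins of equal size. Cxcl10 and Cxcl5 fell in the third bin, where 0.794% of all genes were at least 2-fold higher, and Ccl8 in the second, where 1.89% were. Ccl8, at 7.01 and 8.34, lay at the lower edge of the second bin, which began at a mean of 7.66. In the dimmest bin, just below, 2.91% of genes were at least 2-fold higher. Ccl7 and Ccl2 fell in the brightest bin, where 1.49% of genes were at least 1.5-fold higher, against 15.9% in the dimmest bin, which held Ccl5, Ccl25 and Ackr1. The brightest bin began at a mean of 10.63, near Ccl7 at 10.43 and 11.29. In the third bin 4.33% of genes were at least 1.5-fold higher. Cxcl13 was in the second bin, where 3.34% of genes were at least 1.5-fold lower. The ratios of Ccl7 and Ccl2 were therefore of a size few genes of their signal reached, and those of Ccl5, Ccl25 and Ackr1 were of a more common size.

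**Figure D3:**
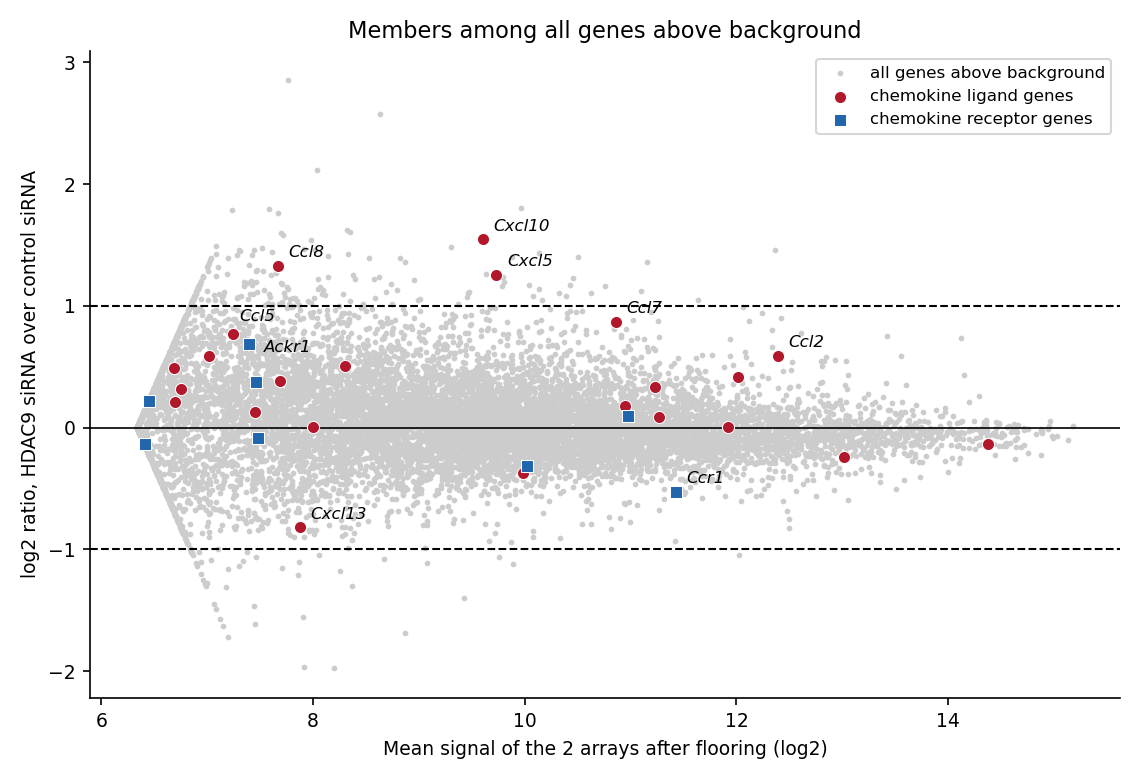
Log2 ratio (vertical axis) against mean log2 signal (horizontal axis) for the 12090 genes above background (grey), with ligand genes as red circles, receptor genes as blue squares and dashed lines at 2-fold. Cxcl10 and Cxcl5 lie above the 2-fold line at intermediate signal, Ccl7 and Ccl2 lie near the upper edge of the grey points at high signal, and the straight edges at the left are bounds set by the floor.

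Agreement between probe sets could be read for the 12 family genes with at least 2 probe sets above background. In 8 of the 12 the brightest and second brightest had the same direction (61.2% over all 5671 genes with several). The 8 were Ccl6, Ccl9, Ccl28, Cxcl1, Cxcl12, Cxcl13, Cxcl16 and Ccr1, and the 4 with opposite directions were Ccl25, Cx3cl1, Cxcl14 and Ackr4. Neither Cxcl10, Ccl8 and Cxcl5 nor Ccl2, Ccl5, Ccl7 and Ccl12 had a second probe set, so these higher ligands had no such check on these arrays. Ccl25, the remaining ligand past 1.5-fold, is among the 4 whose probe sets opposed each other.

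**Figure D4:**
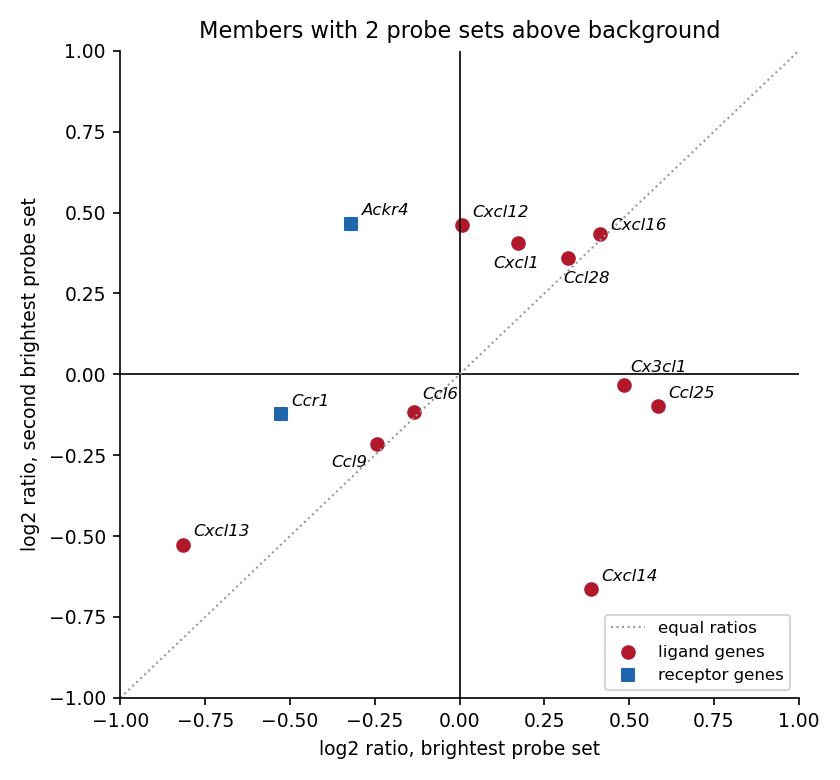
Log2 ratio by the second brightest probe set (vertical axis) against that by the brightest (horizontal axis) for the 12 family genes with both above background, with ligands as circles, receptors as squares and a dotted line of equal ratios. Cxcl16 and Ccl9 lie close to the line on opposite sides of 0, and Cxcl14, at 0.39 and -0.66, lies farthest from it.

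Many chemokine genes sit in tandem arrays, and RefSeq gene order was used to set neighbours side by side. In the array from Ccl2 to Ccl1, all 4 genes above background (Ccl2, Ccl7, Ccl12 and Ccl8) had ratios above 0, from 0.51 to 1.33. In the array from Ccl5 to Ccl4, 3 of 5 genes had ratios above 0, and the range was -0.24 to 0.77. In the array from Cxcl5 to Cxcl2, 4 of 7 genes were above background, with Cxcl5 at 1.26 at one end, Pf4 at -0.38 and Cxcl1 and Cxcl2 at the other end at 0.17 and 0.21. In the array from Cxcl9 to Cxcl11, Cxcl10 in the middle was the 1 gene above background. Genes past 2-fold were thus spread over 3 of the 4 gene arrays, and the arrays of Cxcl5 and Ccl5 held genes of both directions. The lower genes of the Ccl5 array, Ccl9 (-0.24) and Ccl6 (-0.14), were within the single-probe-set scatter.

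**Figure D5:**
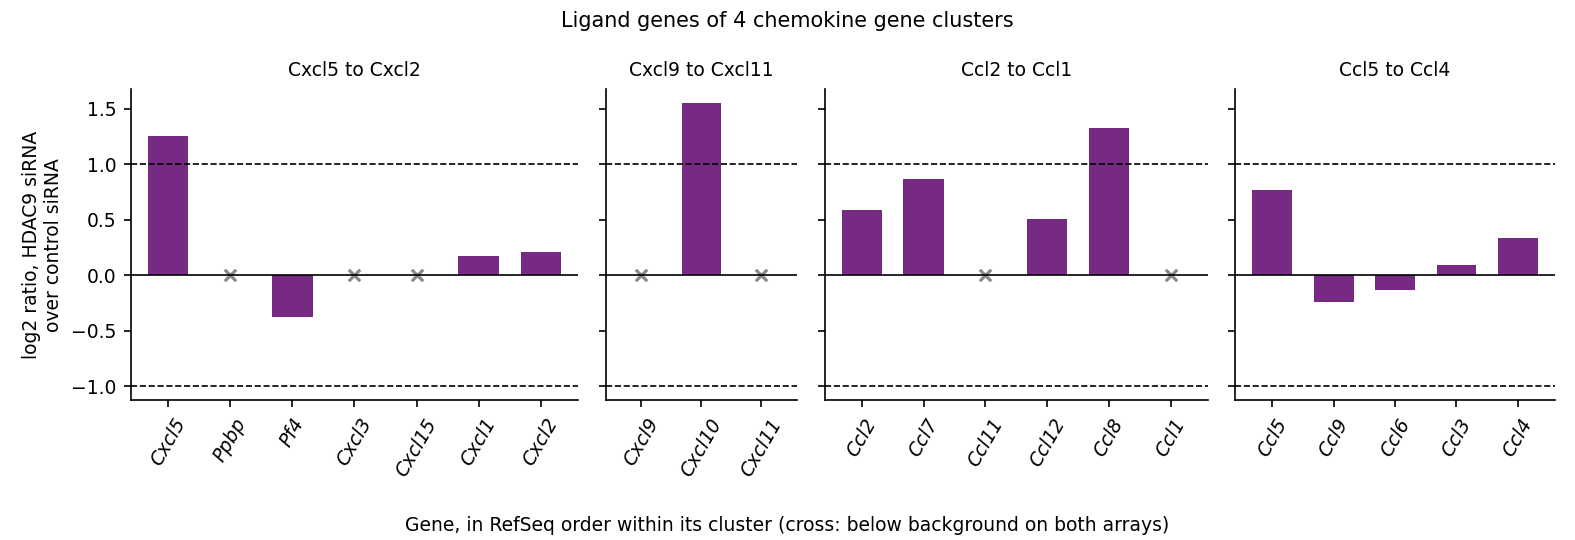
Log2 ratio (HDAC9 siRNA over control siRNA, vertical axis) for the ligand genes of 4 chemokine gene arrays, in RefSeq order along each, with dashed lines at 2-fold and crosses for genes below background on both arrays. In the Ccl2 to Ccl1 panel every bar is above 0, and the other panels hold a single bar or bars of both directions. The bars below 0 in the Ccl5 to Ccl4 panel are within the scatter of a single probe set.

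Downstream of the receptors, a list of 64 symbols for chemokine signalling, turnover and related attractants gave 56 measured genes, 54 of them above background. At least 2-fold higher were 2 genes and lower was 1 (1.44% and 0.372% of all genes), 23 of 54 had ratios above 0, and the median was -0.05. Tiam1, an exchange factor for the small GTPase Rac, had signals of 6.72 and 8.18, 2.75-fold higher, and its 2 dimmer probe sets were below background. Plcb2, a phospholipase C activated by G proteins, had signals of 5.92, below background, and 7.69, at least 2.56-fold higher. Gpr183, a receptor for oxysterols that guide immune cells, had signals of 7.62 and 5.85, the latter below background, at least 2.43-fold lower. The next largest ratios were those of Prex1, another exchange factor for Rac (0.68), C5ar1, the receptor for complement C5a (-0.63, or -0.12 by its second probe set), and Ptk2b, a calcium-dependent tyrosine kinase (0.63, or 0.27 by its second probe set). This list did not share the direction of the ligands.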

How the data were processed

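Gene expression was measured on 2 Affymetrix arrays, 1 per group. The authors deposited a log2 signal for each probe set. MAS5 is named in the submitters' processing notes, with no version or settings; the target of the scaling is not given in the sources read here, and linear means, trimmed by 2% at either end, were 497 on both arrays. Of 45037 probe sets, 34945 had 1 gene symbol in a 2016 platform annotation; those with several or none were left out of gene values. All 55 family genes matched the RefSeq gene table (GRCm38.p6) by gene identifier, with 0 symbols changed.

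Ratios, counts and medians were computed in Python 3.11.15 (numpy 2.4.6, pandas 2.3.3, statsmodels 0.14.6), and the steps were tested on simulated data. The authors' scaling was kept. All family genes above background are named. Of the signalling list, genes past 2-fold and the 6 with the largest absolute ratios are named. Of marker lists, genes past 2-fold and chosen examples are named. Among these examples, Adgre1, Timd4, Mertk, Col1a2, Upk3b, Il7r, Epx, Prg2, Il5ra and the Cd3 genes were chosen after their values were seen. The family, its roles and the lists were chosen with earlier results of these data known. With 1 array per group no test was possible, and precision is limited by the number of arrays. Alternatives changed the scaling (median-centred ratios, quantile normalization, loess with span 0.3), the floor (75th or 99th percentile, or a pseudocount of 1 in its place), the gene summary (median over probe sets, or only probe sets not ending in _a_at, _s_at or _x_at), and the call (thresholds of 1.5-fold and 3-fold, or genes above background on both arrays).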

Additional observations from a re-analysis of the deposited data

How the results depend on the processing

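Cxcl10, Ccl8 and Cxcl5 stayed at least 2-fold higher under every scaling and without the floor, with lowest values of 1.52, 1.22 and 1.22. Each has 1 probe set and signals above both percentile floors. The probe set choices and those floors therefore could not change their values. Counts moved with the threshold and with the removal of the floor. At least 3-fold higher were 0 ligands. At 1.5-fold, 7 ligands and 1 receptor were higher and 1 ligand lower. Of these 9 genes 6 kept that call under every scaling, floor and probe set choice, while Ccl25 (down to 0.24), Ccl2 (0.56) and Ackr1 (0.56) did not. Among the 6, only Cxcl13 had a second probe set, so the probe set choices could not change the others. With no floor, 5 ligands were past 2-fold higher and 1 lower and 3 receptors higher, where 12.2% of all genes were past 2-fold higher, and the ligand median was 0.19. The floor at the 75th percentile put 1 receptor past 2-fold, Ccr6 at 1.26, where 4.35% of all genes were past 2-fold higher. By the median over probe sets the ligand median was 0.23. The receptor median was between -0.09 and 0.13 over the alternatives and had no stable sign. Of 240 alternative values for the 31 genes, 234 differed from the main value by less than the 0.29 scatter and 6 by more. Of the genes past 2-fold, 0 changed sign; 4 genes short of it did (Ackr4, Ccl20, Cxcl12 and Cxcl14), Ackr4 to 0.03 and Cxcl14 to -0.14 by the median over probe sets. In 8 cases an alternative gave a gene no value. Beside the medians, the all-gene median was between 0.00 and 0.04. No paired analysis was possible because each group has 1 array and no test was run.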

Other observations

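Probe sets annotated to several genes lay outside the family as counted, and 4 of them name a chemokine gene. Those shared by the Ccl27 copies, which encode near-identical skin chemokines, had deposited log2 signals of 7.59 (control siRNA) and 7.25 (HDAC9 siRNA) by one probe set and 7.04 and 7.21 by another, opposite in direction. The probe set shared by the Ccl21 copies, which encode lymph node chemokines, was below background at 1.70 and 2.31. The one shared by Ccl19 and its pseudogenes was below background at 3.25 and 5.47.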
